A study of Homo sapiens with 6 samples.

Results

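The genes described here carry glucose from the cell surface to lactate, together with the pentose phosphate branch that leaves this route. They comprise 33 genes of the 23228 listed in the count tables, picked by their place in these pathways. The choice used no threshold on the counts but was made with earlier results of these data known. Of these, 31 were listed under their own symbol, while PKM was listed under its older symbol PKM2 and TIGAR under C12orf5, so that all 33 were found. RNA-seq had been done on MDA-MB-231, a human cell line established from a triple negative breast cancer (TNBC), as 3 replicates of cells with a control non-targeted shRNA and 3 replicates of cells with a PELP1 shRNA (PELP1-KD). Both groups carried a stably expressed shRNA selected with puromycin and were grown in RPMI medium with serum. PELP1 was targeted by a single shRNA sequence, and the labels do not say that the replicates of a group were selected or cultured separately, so the p-values measure the spread between these samples, which may be technical.

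In glycolysis, glucose is phosphorylated by hexokinase, split by aldolase into triose phosphates after a second phosphorylation by phosphofructokinase, and then oxidized to pyruvate with a net gain of ATP. Many tumor cells convert most of the pyruvate to lactate by lactate dehydrogenase and export it through monocarboxylate transporters even when oxygen is present. The pentose phosphate pathway takes glucose phosphate aside to make NADPH and ribose for nucleotides. Several of the steps are served by more than 1 isozyme, each from its own gene.

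The reads counted on genes numbered from 17304864 to 23132102 in the 6 libraries. The targeted gene PELP1 was at 57.8 CPM ± 2.14 in control and 29.6 CPM ± 0.876 in PELP1-KD cells (SD, n = 3 each), where CPM is the count scaled to a common library size by edgeR's TMM method. Of the 5 markers of the cell line, VIM, CD44 and AXL were at 827 CPM or more and MSN at 393 CPM or more in every replicate, while SPARC was low, with a mean of 5.02 CPM in control and 14.8 CPM in PELP1-KD cells. Of the 6 luminal or epithelial markers, the hormone receptor genes ESR1 and PGR and the cadherin CDH1 were at 0.225 CPM or less in every replicate, whereas KRT8, ERBB2 and EPCAM were expressed, with a control mean of 284, 113 and 9.46 CPM. The 4 markers of leukocytes and endothelium summed to at most 0.352 CPM in control replicates and at most 1.06 CPM in PELP1-KD replicates. Reads with more than 1 alignment, which were counted on no gene, made up between 32.7% and 32.9% of the reads in control replicates and between 32.5% and 32.6% in PELP1-KD replicates.

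All 33 genes had enough counts to enter the quasi-likelihood test of edgeR, whose p-values were adjusted by Benjamini-Hochberg over 12796 genes. At an adjusted p-value below 0.05, 12 of the 33 (36.4%) fell and 7 (21.2%) rose upon PELP1-KD, against 24.2% lower and 22.7% higher among all tested genes. The upregulated share was thus close to that of all genes, and the downregulated share was above it. The fallers were SLC2A1, HK2, ALDOA, TPI1, GAPDH, ENO1, PKM, LDHA, LDHB, PGD, RPE and FBP1, and the genes that rose were HK1, ALDOC, BPGM, SLC16A1, PGLS, RPIA and PFKFB2. Most changes were small. The log2 fold change (log2FC, PELP1-KD against control) ran from -0.67 to 1.61 with a median of -0.05, against 0.0014 for the median over all genes tested. A log2FC beyond 1 together with the adjusted p-value was met by 1 of the 33 genes, SLC16A1, and by 3.24% of all tested genes. PELP1-KD replicates lay wholly below the control replicates in 13 of the 33 genes and wholly above them in 7, against 28.0% and 27.0% of all tested genes.

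**Figure D1:**
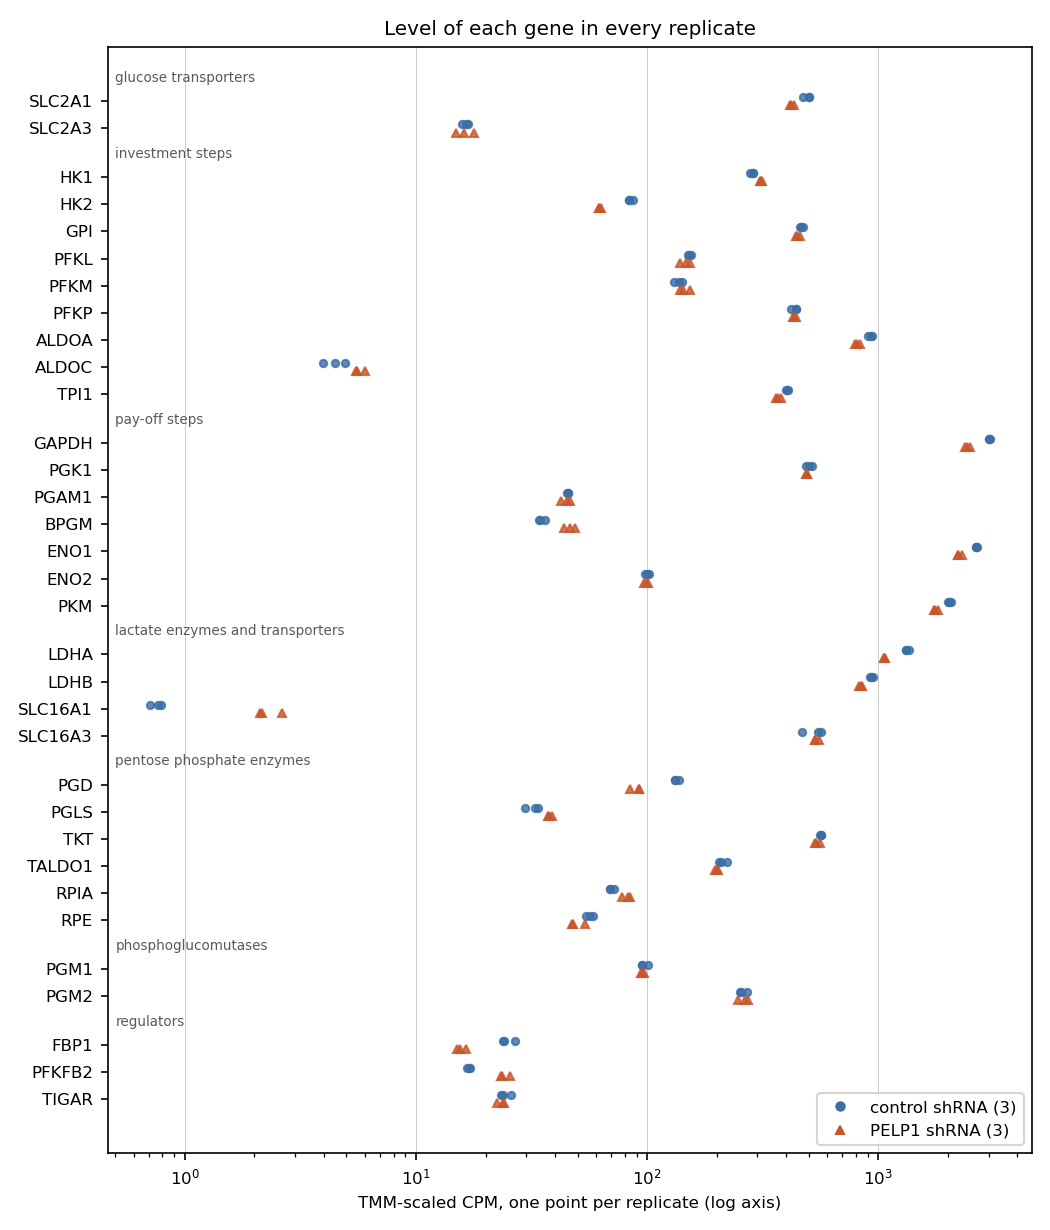
TMM-scaled CPM of the 33 genes (log axis) in each of the 3 control shRNA replicates (circles) and 3 PELP1 shRNA replicates (triangles), grouped by role. Levels span from 0.704 CPM for SLC16A1 to 3043 CPM for GAPDH, and replicates of a group lie close together in most genes.

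Glucose enters through facilitative transporters. SLC2A1, which encodes the widespread transporter GLUT1, had 473, 504 and 501 CPM in control replicates 1, 2 and 3 and 418, 430 and 416 CPM in PELP1-KD replicates 1, 2 and 3. All PELP1-KD values lay under all control values, with a log2FC of -0.23 (SE, its standard error, 0.0309, adjusted p-value 4.97e-06). SLC2A3, which encodes the high-affinity transporter GLUT3, had 16.3 CPM ± 0.508 (SD, n = 3) and 16.3 CPM ± 1.48 (SD, n = 3). Its groups overlapped, and the 95% interval of its log2FC ran from -0.18 to 0.16. Per exon length (RPKM, the CPM per kilobase of coding transcripts), SLC2A1 stood 29.6 times above SLC2A3 in control cells. Of the 50-base windows of the SLC2A3 transcript, 70.3% also occur in other genes, SLC2A14 above all, and reads from such windows may have been left uncounted. With only the unshared windows taken as length, the same ratio was 9.59.

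Of the 9 genes of the ATP-investing steps, 3 fell and 2 rose. The hexokinases, which trap glucose in the cell, moved apart. HK2, the inducible hexokinase that many tumors express, had 83.3, 86.6 and 83.3 CPM in control replicates and 63.4, 61.7 and 62 CPM in PELP1-KD replicates, with a log2FC of -0.44 (SE 0.0448, adjusted p-value 9.95e-08). HK1, the constitutive form, had 287, 288 and 280 CPM in control replicates and 307, 311 and 315 CPM in PELP1-KD replicates, with a log2FC of 0.12 (SE 0.0305, adjusted p-value 0.00212). Neither gene's groups overlapped. HK1 was the more abundant per length, at 61.1 RPKM ± 0.897 against 14.2 RPKM ± 0.319 for HK2 in control cells (SD, n = 3).

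GPI, which converts glucose phosphate to fructose phosphate, and the 3 phosphofructokinase genes PFKL, PFKM and PFKP, whose enzymes make the committed step of glycolysis, did not pass the threshold. Their log2FC was -0.05, -0.05, 0.09 and 0.01, and their 95% intervals stayed between -0.134 and 0.185. PFKM was the nearest to the threshold, with 141, 137 and 131 CPM in control replicates and 139, 154 and 143 CPM in PELP1-KD replicates (adjusted p-value 0.078). Without control replicate 1 its adjusted p-value was 0.0165, and without PELP1-KD replicate 1 it was 0.0343. With each other replicate left out it was between 0.112 and 0.349. The platelet form PFKP was the highest of the 3 per length, at 114 RPKM in control cells, whereas the order of PFKL and PFKM depended on which exons were counted as their length.

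Aldolase A, the main aldolase of muscle and of most dividing cells, is encoded by ALDOA, which fell from 925 CPM ± 16.8 to 811 CPM ± 21.3 (SD, n = 3), a log2FC of -0.19 (SE 0.0274, adjusted p-value 8.64e-06). ALDOC, the brain-type aldolase, had only 67, 112 and 79 reads in control replicates and 107, 118 and 141 reads in PELP1-KD replicates. Its log2FC was 0.34 (SE 0.128, adjusted p-value 0.0339), and the call was lost without each replicate in turn other than control replicate 2, with adjusted p-values between 0.0517 and 0.118, and in DESeq2, with an adjusted p-value of 0.143. TPI1, the triose phosphate isomerase, fell slightly from 403 CPM ± 3.14 to 370 CPM ± 9.89 (SD, n = 3), a log2FC of -0.12 (SE 0.03, adjusted p-value 0.00186).

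Among the 7 genes of the ATP-yielding steps, 3 fell, and these were the most abundant genes of the whole route. GAPDH, the glyceraldehyde phosphate dehydrogenase that is widely used as a loading reference, had 3018, 3043 and 3025 CPM in control replicates and 2368, 2490 and 2411 CPM in PELP1-KD replicates. That is a fall of 20%, or a log2FC of -0.32 (SE 0.0231, adjusted p-value 4.98e-10), with no overlap between the groups. ENO1, the widespread enolase, had 2659, 2676 and 2643 CPM in control replicates and 2214, 2310 and 2214 CPM in PELP1-KD replicates, with a log2FC of -0.24 (SE 0.0233, adjusted p-value 3.75e-08). PKM, the pyruvate kinase that makes pyruvate and the last ATP, fell from 2036 CPM ± 25.8 to 1772 CPM ± 34.1 (SD, n = 3), with a log2FC of -0.20 (SE 0.0237, adjusted p-value 7.19e-07). The counts are summed over the gene, so that the PKM1 and PKM2 splice forms could not be told apart.

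The phosphoglycerate kinase gene PGK1, the mutase gene PGAM1 and the neuronal enolase gene ENO2 did not pass the threshold, with a log2FC of -0.04, -0.02 and -0.01 and 95% intervals within -0.13 and 0.09. Enzymes acting next to each other in the route thus differed in this comparison, since PGK1 and PGAM1 lie between GAPDH and ENO1. PGAM1 was counted at 45.3 CPM ± 0.202 (SD, n = 3) in control cells, far below its neighbors, and 66.8% of its 50-base windows also occur in other genes, with 13 pseudogenes bearing its name in the annotation. BPGM, which makes bisphosphoglycerate in a side step around phosphoglycerate kinase, rose. It had 36.2, 34.5 and 34.1 CPM in control replicates and 48.6, 43.8 and 46.5 CPM in PELP1-KD replicates, a log2FC of 0.41 (SE 0.0576, adjusted p-value 7.51e-06).

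**Figure D2:**
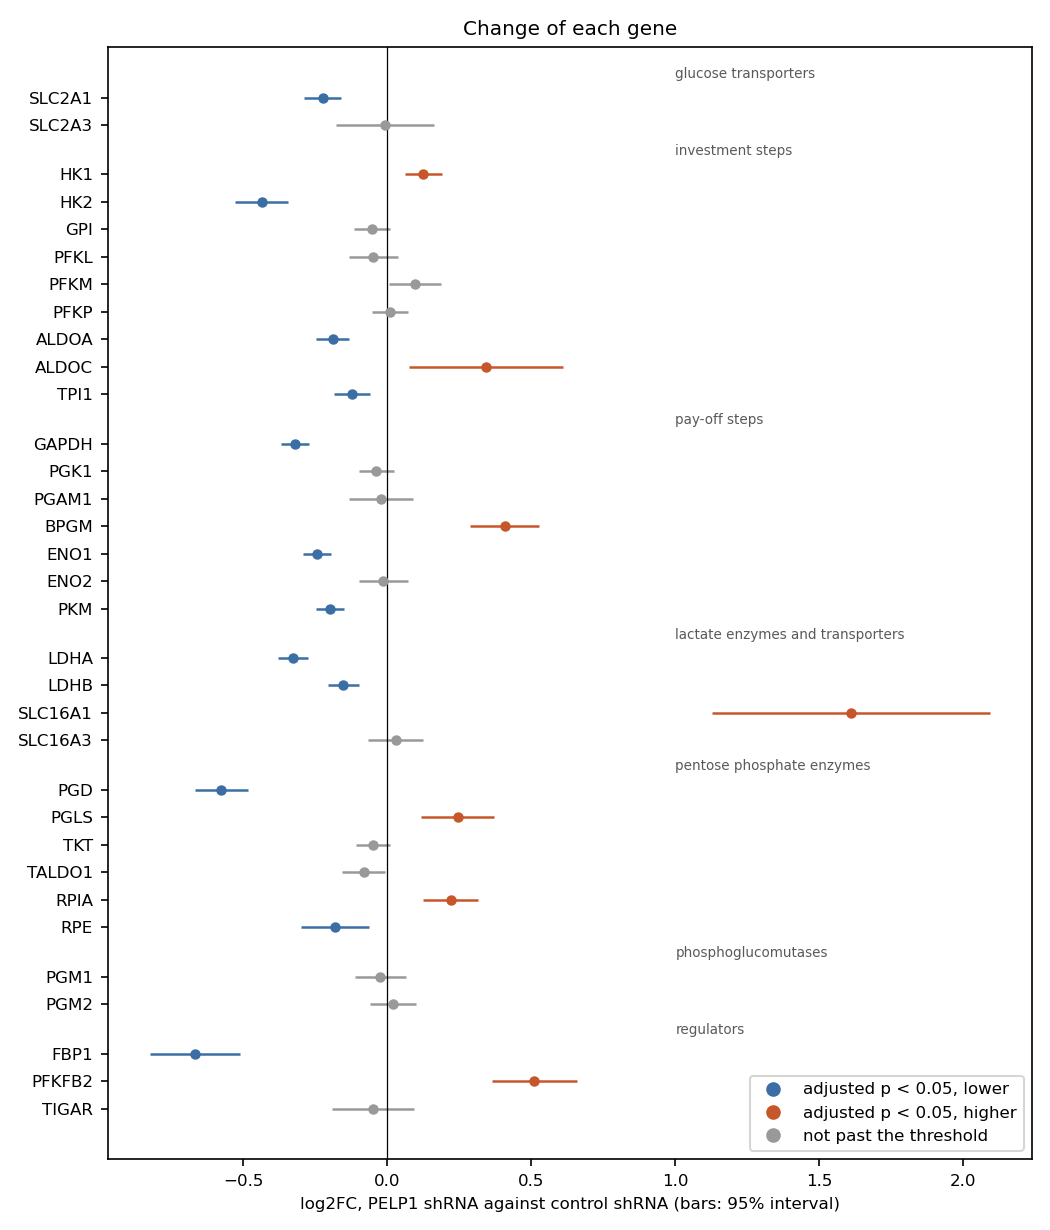
The log2FC of each of the 33 genes in PELP1 shRNA against control shRNA cells, with 95% intervals from edgeR's quasi-likelihood fit. The 12 genes in blue were lower and the 7 in orange higher at an adjusted p-value below 0.05, and SLC16A1 at 1.61 is the only gene beyond 1.

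At the end of the route both lactate dehydrogenase genes fell. LDHA, whose subunit favors the making of lactate from pyruvate, had 1359, 1320 and 1323 CPM in control replicates and 1060, 1054 and 1074 CPM in PELP1-KD replicates. Its log2FC was -0.33 (SE 0.0246, adjusted p-value 9.03e-10). LDHB, whose subunit favors the use of lactate, had 924, 947 and 930 CPM in control replicates and 845, 829 and 847 CPM in PELP1-KD replicates, with a log2FC of -0.15 (SE 0.0254, adjusted p-value 5.01e-05). The groups did not overlap in either gene. LDHA had more reads than LDHB, but per length it stood at 0.763 of LDHB in control cells, and at 0.995 of LDHB when only the windows that no other gene shares were taken as length, so these data give no firm order of the pair.

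Of the monocarboxylate transporters, the lactate exporter MCT4, encoded by SLC16A3, was abundant and MCT1, encoded by SLC16A1 and able to carry lactate both in and out of cells, was barely detected. SLC16A1 was counted with 13, 16 and 14 reads in control replicates and with 42, 56 and 50 reads in PELP1-KD replicates, from 0.754 CPM ± 0.0441 to 2.3 CPM ± 0.281 (SD, n = 3). This was the largest change of the 33 genes, a log2FC of 1.61 (SE 0.232, adjusted p-value 9e-06), and it was between 1.51 and 1.67 with each replicate left out in turn. A count of 3, taken as the floor of detection, stands for between 0.13 and 0.173 CPM, so that SLC16A1 lay above this floor in every replicate, with counting error as a limit on its precision. SLC16A3 had 470, 550 and 566 CPM in control replicates and 531, 553 and 534 CPM in PELP1-KD replicates, with overlapping groups and a 95% interval of its log2FC from -0.07 to 0.13. Even after the rise of SLC16A1, SLC16A3 stood 212 times above it per length in PELP1-KD cells, against 633 times in control cells (414 times with all exons taken as length).

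In the pentose phosphate pathway, 2 of 6 genes fell and 2 rose. PGD, the phosphogluconate dehydrogenase that yields the second NADPH of the oxidative branch, had 137, 132 and 132 CPM in control replicates and 83.9, 92.6 and 92.2 CPM in PELP1-KD replicates. It fell by 33.1%, a log2FC of -0.58 (SE 0.044, adjusted p-value 1.17e-09). PGLS, the lactonase that acts just before PGD, moved the other way, with 29.5, 32.6 and 33.8 CPM in control replicates and 38.8, 37.8 and 37.1 CPM in PELP1-KD replicates (log2FC 0.24, SE 0.061, adjusted p-value 0.0026). Both genes had groups that did not overlap.

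In the non-oxidative branch, RPIA, the ribose phosphate isomerase, rose from 70 CPM ± 1.61 to 81.5 CPM ± 3.14 (SD, n = 3), a log2FC of 0.22 (SE 0.0464, adjusted p-value 0.00059). RPE, the epimerase that acts on the same pentose, had 58.2, 54.5 and 56.8 CPM in control replicates and 54.1, 47.7 and 47.5 CPM in PELP1-KD replicates, a log2FC of -0.18 (SE 0.0569, adjusted p-value 0.0116). The RPE call rested on its replicates, since the adjusted p-value was 0.0586 without PELP1-KD replicate 2 and 0.0764 without PELP1-KD replicate 3, and 0.0554 with library totals in place of TMM. The 2 carbon-shuffling enzymes TKT and TALDO1, which return pentoses to glycolysis and are the most abundant of the branch, did not pass, with a log2FC of -0.05 and -0.08 and 95% intervals from -0.11 to 0.01 and from -0.16 to -0.01. TALDO1 had an adjusted p-value of 0.0652 although its replicates did not overlap, and without control replicate 1 it passed at 0.00962. With each other replicate left out, TALDO1 was between 0.0648 and 0.306. TKT passed at 0.0455 without PELP1-KD replicate 2, and was between 0.0619 and 0.436 with each other replicate left out. With library totals the adjusted p-value was 0.47 for TALDO1 and 0.953 for TKT.

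The phosphoglucomutase genes PGM1 and PGM2, which link glucose phosphate to glycogen and to pentose breakdown, had a log2FC of -0.03 and 0.02, with 95% intervals between -0.11 and 0.10. Of the 3 regulators, FBP1 fell and PFKFB2 rose. FBP1, the fructose bisphosphatase that runs the phosphofructokinase step backward in gluconeogenesis, had 23.8, 24.1 and 26.9 CPM in control replicates and 16.5, 15 and 15.5 CPM in PELP1-KD replicates. Its log2FC of -0.67 (SE 0.075, adjusted p-value 3.41e-07) was the lowest of the 33 genes. PFKFB2, which makes and degrades the allosteric activator of phosphofructokinase, had 17, 17.2 and 16.6 CPM in control replicates and 25.6, 23.5 and 23.4 CPM in PELP1-KD replicates, a log2FC of 0.51 (SE 0.0709, adjusted p-value 5.94e-06). In both genes the groups did not overlap. TIGAR, a p53-induced phosphatase that lowers this activator, had 24.2 CPM ± 1.26 and 23.4 CPM ± 0.85 (SD, n = 3) and did not pass (95% interval of its log2FC from -0.19 to 0.09).

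Summed over the 33 genes, the level was 16039, 16150 and 16079 CPM in control replicates and 14008, 14400 and 14069 CPM in PELP1-KD replicates, 12% lower with no overlap. The sum fell by 8.93% with library totals in place of TMM factors and fell by 10.1% without GAPDH. In sum the ATP-yielding steps fell by 15.3% and the lactate group fell by 12.6%, whereas the investing steps fell by 5.33% and the pentose phosphate group fell by 6.12%. The phosphoglucomutases and the regulators overlapped between groups in their sums. These sums follow their most abundant members, and no test was made on them.

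**Figure D3:**
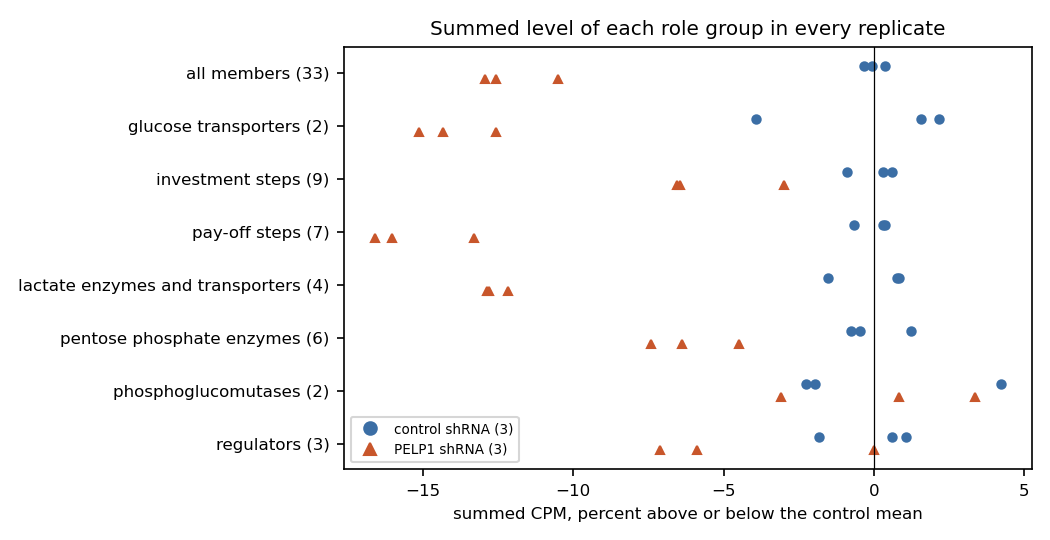
Summed TMM-scaled CPM of each role group in every replicate, as percent above or below the control mean, for 3 control shRNA (circles) and 3 PELP1 shRNA (triangles) replicates. PELP1 shRNA replicates lie below all control replicates for all 33 genes together and for the first 5 role groups, and overlap them for the phosphoglucomutases and regulators.

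Falls took up most of the abundant end of the list, though the 3 largest falls (FBP1, PGD and HK2) were of genes at 134 CPM or less in control cells. Of the 9 genes at 500 CPM or more in control cells, 6 fell and 0 rose, by edgeR's quasi-likelihood test, while PGK1, SLC16A3 and TKT did not pass. Of the 24 genes below this level, 6 fell and 7 rose. The other genes of the transcriptome showed a like pattern, since 60.2% of the 256 others at 500 CPM or more fell and 11.3% rose, against 23.5% and 22.9% of the 12507 below it. The share of abundant glycolytic genes that fell, 66.7%, was near that of the other genes at this level. The line of 500 CPM was drawn after the values were seen.

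A second property went along with the calls. Of the 14 genes that shared at least 10% of their 50-base windows, with up to 2 mismatches, with transcripts of genes at other places, 10 fell and 0 rose. Of the 19 genes that shared less, 2 fell (SLC2A1 and FBP1) and 7 rose. This property overlaps with the level. ALDOA, GAPDH, ENO1, PKM, LDHA and LDHB, the fallers at 500 CPM or more, all shared at least 10% of their windows. The other fallers that did so, HK2, TPI1, PGD and RPE, were below 500 CPM. The parts of level and shared windows were not tested apart. GAPDH, with 62 pseudogenes of its name, shared 50.3% of its windows, LDHA 33.4%, ENO1 25.4%, PKM 24.7% and PGD 32.7%. The line of 10% was drawn after the values were seen. Windows were not compared for the other tested genes, so a named pseudogene served as the measure there. By that measure, 15 of the 33 genes had a named pseudogene, of which 10 fell and 2 rose. Of the 18 without, 2 fell and 5 rose. Among the other tested genes, 33.6% of the 1372 with a named pseudogene fell and 17.1% rose. Of the 11391 without, 23.1% fell and 23.4% rose. Among those at 500 CPM or more, 53.6% of those with a named pseudogene and 64.2% of those without fell. Reads from shared windows may be missing from the levels in both groups, and their part in the differences was not tested.

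**Figure D4:**
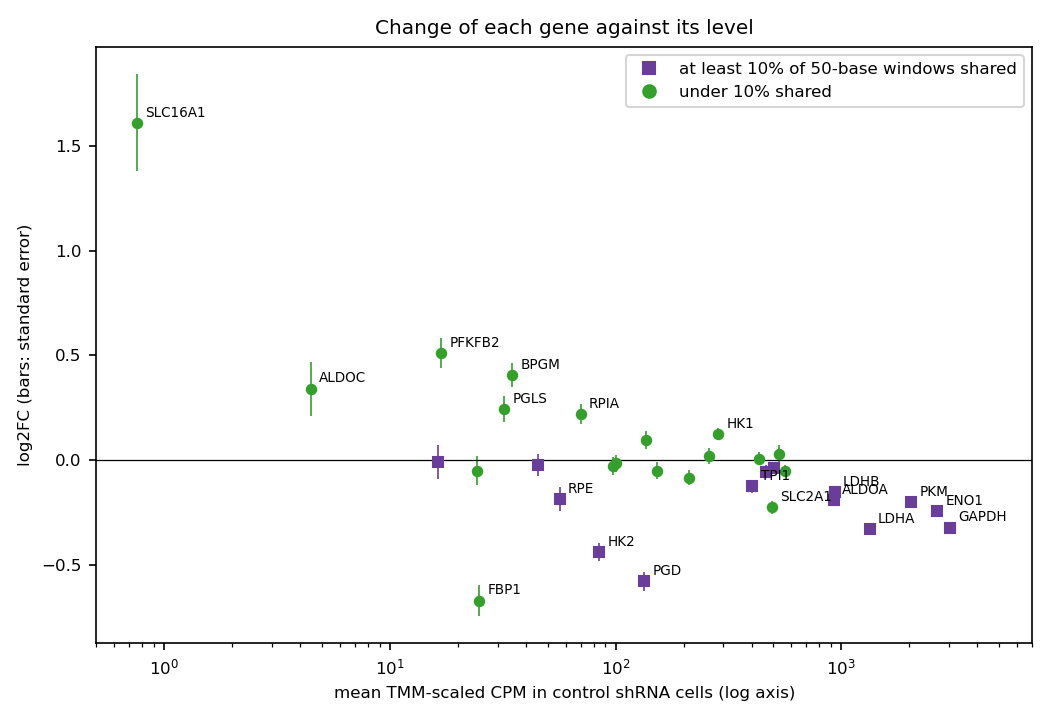
The log2FC of each of the 33 genes (bars show the standard error) against its mean TMM-scaled CPM in control shRNA cells (log axis). Squares mark the 14 genes that share at least 10% of their 50-base windows with other genes, and genes past the threshold are named. All 6 named genes at 925 CPM or more lie below 0, and the 7 genes that rose all share less.

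A ratio of paired isozymes within a library does not depend on how libraries are scaled. The count ratio was compared for 10 pairs by an exact permutation test (two-sided), for which 0.1 is the smallest p with 3 against 3 replicates. In 7 of the 10 pairs every PELP1-KD ratio lay below every control ratio, with p = 0.1 in the exact test and 0.143 after adjustment over the pairs, so that none could pass 0.05. The share of other gene pairs without overlap was not computed. Among single genes tested, 28.0% lay wholly below and 27.0% wholly above. The direction of a ratio depends on which gene was written first, and the phosphofructokinase pairs share genes, so the 10 pairs are not independent. The log2 ratio of HK2 to HK1 was -1.783, -1.735 and -1.751 in control replicates and -2.277, -2.332 and -2.343 in PELP1-KD replicates, a difference of -0.56. The log2 ratio of LDHA to LDHB was 0.56, 0.48 and 0.51 in control replicates and 0.33, 0.35 and 0.34 in PELP1-KD replicates, a difference of -0.18. The balance thus shifted from HK2 toward HK1 and from LDHA toward LDHB in every PELP1-KD replicate. Differences of -0.55 for ALDOA to ALDOC, -0.23 for ENO1 to ENO2, -0.22 for SLC2A1 to SLC2A3 and -0.15 for PFKL to PFKM were measured without overlap. The ratio of SLC16A3 to SLC16A1 changed the most, by -1.57, on the few reads of SLC16A1. The ratios of PFKP to PFKL, PFKP to PFKM and PGM1 to PGM2 overlapped between groups.

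**Figure D5:**
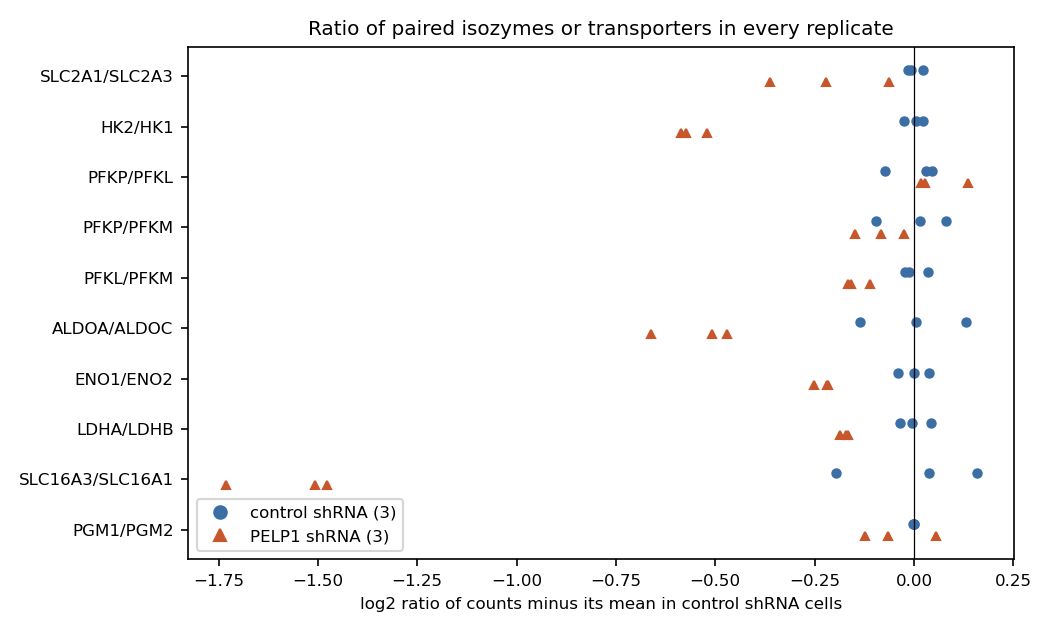
The log2 ratio of counts for 10 pairs of isozymes or transporters in each replicate, less its mean in control shRNA cells, for 3 control shRNA (circles) and 3 PELP1 shRNA (triangles) replicates. The PELP1 shRNA points lie below all control points in 7 pairs, farthest for SLC16A3/SLC16A1 at -1.57 on average.

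Promoters were available in RefSeq (GRCh38.p14) for 30 of the 33 genes, SLC2A3, SLC16A1 and PFKFB2 being the others. Each ran from 250 bases before to 50 bases after a RefSeq start of the gene, and other starts of the same gene were not searched. In some genes, such as GAPDH, PGK1 and LDHB, the start used lies inside the gene as annotated in GENCODE. The promoters were searched on both strands for ACGTG, a form of the core of the hypoxia response element bound by HIF. ACGTG also lies in the E-box CACGTG bound by MYC and its partners. The other form of the core, GCGTG, was not searched. ACGTG occurred in 12 of the 30 promoters (40.0%), against 21.6% of all 27305 promoters of this length and 23.7% of the 13778 promoters of genes in the count tables. CACGTG occurred in 4 (13.3%), against 7.4% and 8.9%. ACGTG was found in 5 of the 12 promoters of genes that fell and in 2 of the 5 of genes that rose. It was also found in 5 of the 13 of genes that did not pass, so ACGTG did not sort the genes by direction. A match of letters is a description and does not show binding. Shown are the promoters of the 3 largest falls, PGD and HK2 with ACGTG and FBP1 without it. That of SLC16A3, whose ratio to SLC16A1 changed the most, is also shown. That of LDHA was picked after the search for its 3 sites. Capitals mark each site of ACGTG, read on either strand.

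FBP1, chr9:94639469-94639768, minus strand: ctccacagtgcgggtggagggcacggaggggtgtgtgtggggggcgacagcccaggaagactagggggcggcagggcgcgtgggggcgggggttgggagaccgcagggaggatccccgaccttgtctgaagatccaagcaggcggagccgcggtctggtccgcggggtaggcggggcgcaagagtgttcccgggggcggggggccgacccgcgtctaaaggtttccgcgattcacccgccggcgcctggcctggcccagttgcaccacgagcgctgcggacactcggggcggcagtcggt
PGD, chr1:10398814-10399113, plus strand: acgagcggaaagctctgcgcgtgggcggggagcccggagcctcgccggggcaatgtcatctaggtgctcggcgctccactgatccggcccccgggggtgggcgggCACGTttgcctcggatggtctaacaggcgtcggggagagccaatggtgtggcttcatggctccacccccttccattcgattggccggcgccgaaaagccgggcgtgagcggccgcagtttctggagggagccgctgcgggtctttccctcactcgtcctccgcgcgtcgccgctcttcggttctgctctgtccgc
HK2, chr2:74833877-74834176, plus strand: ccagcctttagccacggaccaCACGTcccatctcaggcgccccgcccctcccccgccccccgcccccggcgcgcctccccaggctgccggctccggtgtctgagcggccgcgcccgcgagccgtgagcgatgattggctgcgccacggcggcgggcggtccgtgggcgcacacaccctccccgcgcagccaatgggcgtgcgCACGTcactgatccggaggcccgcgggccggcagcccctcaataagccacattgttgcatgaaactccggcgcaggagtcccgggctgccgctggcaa
LDHA, chr11:18394313-18394612, plus strand: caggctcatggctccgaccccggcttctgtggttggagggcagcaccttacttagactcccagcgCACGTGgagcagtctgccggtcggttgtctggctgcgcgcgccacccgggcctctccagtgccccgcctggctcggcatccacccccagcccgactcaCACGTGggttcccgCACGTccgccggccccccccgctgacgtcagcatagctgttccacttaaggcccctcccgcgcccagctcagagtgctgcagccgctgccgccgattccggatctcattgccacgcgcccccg
SLC16A3, chr17:82228185-82228484, plus strand: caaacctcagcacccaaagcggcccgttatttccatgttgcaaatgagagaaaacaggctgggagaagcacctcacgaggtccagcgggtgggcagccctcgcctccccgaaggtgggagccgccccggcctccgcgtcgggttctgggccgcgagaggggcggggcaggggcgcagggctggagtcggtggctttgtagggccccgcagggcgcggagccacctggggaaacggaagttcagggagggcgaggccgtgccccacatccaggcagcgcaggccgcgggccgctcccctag

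In LDHA, 2 of the 3 sites are the E-box. The HK2 promoter holds 2 sites and that of PGD 1 site, none of them in an E-box. FBP1, whose fall was the largest, and SLC16A3 have no ACGTG site in this window, where GCGTG was not searched.

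A further 66 genes of the neighboring steps were listed, such as other isozymes, glycogen enzymes, the pyruvate dehydrogenase complex and its kinases, of which 47 had enough counts to be tested. Of these, 15 (31.9%) rose and 9 (19.1%) fell at an adjusted p-value below 0.05, against 22.7% and 24.2% of all tested genes, and the median log2FC was 0.07 against 0.0014. With library totals in place of TMM, 22 rose and 7 fell, and with upper-quartile factors 21 rose and 7 fell, while without PELP1-KD replicate 3 only 9 rose. The largest falls were those of PDK3, a kinase that switches off pyruvate dehydrogenase, KHK, the ketohexokinase that phosphorylates fructose, and SLC16A7, which encodes MCT2. PDK3 had 6.27, 6.95 and 6.48 CPM in control replicates and 3.28, 3.84 and 2.55 CPM in PELP1-KD replicates, a log2FC of -1.04 (SE 0.145, adjusted p-value 6.14e-06). KHK had a log2FC of -0.87 (SE 0.119, adjusted p-value 4.82e-06) and SLC16A7 of -0.31 (SE 0.0908, adjusted p-value 0.00825).

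The largest rises of these neighbors were those of PGM2L1, which makes glucose bisphosphate, the insulin-responsive transporter gene SLC2A4 and PDK4. PGM2L1 had 10.8, 10.5 and 10 CPM in control replicates and 19.6, 18.6 and 22.1 CPM in PELP1-KD replicates, a log2FC of 0.95 (SE 0.0874, adjusted p-value 2.09e-08). PDK4 had few reads, 56, 80 and 60 in control and 95, 111 and 117 in PELP1-KD replicates. Its log2FC was 0.56 (SE 0.133, adjusted p-value 0.00182). PDK1 and PDK2, named after the values were seen, had a log2FC of 0.18 (SE 0.062, adjusted p-value 0.0218) and 0.34 (SE 0.058, adjusted p-value 6.66e-05). Thus 3 of the 4 kinases rose and PDK3 fell. SLC2A4 had 10, 10 and 8 reads against 17, 16 and 26 reads, a log2FC of 0.90 (SE 0.322, adjusted p-value 0.0267), and its call was lost without control replicate 2 or 3 or PELP1-KD replicate 3 and in DESeq2, with adjusted p-values between 0.0716 and 0.165. Chosen after the values were seen, BSG, the chaperone that brings MCT1 and MCT4 to the membrane, fell from 966 CPM ± 26.4 to 859 CPM ± 26.4 (SD, n = 3) (log2FC -0.17, SE 0.0289, adjusted p-value 6.71e-05). PFKFB3, likewise chosen, rose as PFKFB2 did, with a log2FC of 0.39 (SE 0.04, adjusted p-value 1.07e-07). Their isozyme gene PFKFB4 did not pass, with a log2FC of -0.17 (SE 0.0826, adjusted p-value 0.101), and PFKFB1 had too few counts to be tested.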

How the data were processed

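RNA-seq reads of 50 bases from 6 stranded poly(A) libraries of MDA-MB-231 cells were used. The authors deposited, for each replicate, raw read counts per gene symbol, without normalization. The submitters' processing notes name bcl2fastq, TopHat2, SAMtools, HTSeq and hg19. Versions, annotation and strand setting are not given in the sources used here. Reads with more than 1 alignment were counted on no gene.

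Counts were tested in edgeR 4.0.16 (R 4.3.3) with filterByExpr at its default minimum of 10 counts, TMM scaling and the quasi-likelihood test, with Benjamini-Hochberg adjustment over all 12796 tested genes. Standard errors were taken as the size of the log2FC over the root of F, and 95% intervals use the test's degrees of freedom. The authors' methods use DESeq2, which was run here as an alternative (1.42.0), beside limma-voom (limma 3.58.1), other scalings and filters, the replicate number as a block and leaving out each replicate. The script was tested on simulated data. The floor of 3 counts covers counting error only.

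RPKM used the exons of coding transcripts in GENCODE release 29 (GRCh38), whose build is not that of the counts, and 84.7% of the 23228 genes had such a length. The length from all exons, or from unshared windows, and the lines at 500 CPM and at 10% of shared windows were chosen after seeing the data. Windows are stretches of 50 bases of the main coding transcript, compared with all other GENCODE transcripts away from the gene. Genes named are all members, PELP1, and the 3 highest and 3 lowest log2FC past the threshold in the neighboring list, with promoters for the largest changes and the pair whose ratio changed the most. PDK1, PDK2, BSG, PFKFB1, PFKFB3, PFKFB4 and the LDHA promoter were added after the values were seen. Members and lists were chosen with earlier results of these data known.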

Additional observations from a re-analysis of the deposited data

How the results depend on the processing

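Of 462 values of the 33 genes under 14 alternatives, 426 kept their direction and their side of the threshold, 8 gained a call, 9 lost one and 19 changed sign. The sign changes were in 9 genes, 0 of them called. With upper-quartile factors the log2FC became 0.029 for SLC2A3, 0.015 for PGAM1, 0.023 for ENO2 and 0.012 for PGM1, and with library totals 0.041, 0.027, 0.035 and 0.024 for the same genes, 0.011 for PGK1 and 0 (rounded) for PFKL. With each replicate left out it ran from -0.072 to 0.051 for SLC2A3, -0.017 to 0.019 for PFKP, -0.05 to 0.013 for PGAM1, -0.032 to 0.004 for ENO2, -0.05 to 0.078 for SLC16A3, -0.044 to 0.003 for PGM1 and -0.01 to 0.058 for PGM2. The call of 28 genes never changed, and the exceptions were PFKM, ALDOC, TKT, TALDO1 and RPE. The number of genes that rose was between 6 and 8 and the number that fell between 11 and 13 over all alternatives. The summed level changed by -8.93% with library totals, by -10.14% without GAPDH, and by between -12.75% and -11.53% with each replicate left out in turn. With library totals the median log2FC of all genes was 0.0507 and that of the 33 genes was 5e-04. Of the neighboring genes, between 9 and 16 rose and between 8 and 9 fell with each replicate left out, and the count of 9 was that without PELP1-KD replicate 3. The cause of these differences was not tested.

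Same-numbered replicates deviated together at a correlation of 0.196, 0.2 and -0.108, so the numbers were not taken as a pairing. In the fit with replicate as a block, 8 genes rose and 13 fell, PFKM (adjusted p-value 0.0363) and TALDO1 (0.0386) being added by edgeR's quasi-likelihood test, and 15 neighboring genes rose and 9 fell. The log2FC of PELP1 under the block was -0.97, and between -0.99 and -0.94 with each replicate left out. With 5 counts added to both genes, the log2 ratio of SLC16A3 to SLC16A1 differed by -1.28 in place of -1.57. Depth limits SLC16A1, ALDOC, SLC2A4 and PDK4, which had at most 141 reads in a replicate, and PDK3, which had at most 158.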
